A study of Mus musculus with 8 samples.

Results

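*Scarb1*, *Pla2g6*, *Numb*, *Sec31a* and *Osbpl9* are 5 genes whose transcripts are named in the study as splicing targets of RBFOX2 in the liver. They were chosen by that naming, not by their mRNA level, though with earlier results of these data known. They are 5 of the 46078 gene identifiers counted in each liver. All 5 had enough counts to be tested, among 13856 genes in all. Their summed reads per gene were compared here between livers with and without hepatocyte *Rbfox2*. Splicing itself, that is the share of transcripts that include an exon, is not in these counts.

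RBFOX2 is an RNA-binding protein that recognizes GCAUG, often preceded by U, in pre-mRNA and promotes the skipping or inclusion of nearby exons. Such a protein can change which isoform a gene makes without changing how much mRNA it makes, and the level of a target gene is measured separately from its splicing. The 5 targets act in hepatic lipid handling. *Scarb1* encodes the receptor through which hepatocytes take up cholesteryl esters from high-density lipoprotein (HDL), *Pla2g6* a calcium-independent phospholipase A2 that releases a fatty acid from phospholipids, *Numb* an adaptor that links membrane cargo to clathrin, *Sec31a* a subunit of the outer COPII coat that buds vesicles from the endoplasmic reticulum (ER), and *Osbpl9* a lipid-transfer protein of the oxysterol-binding protein family.

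Poly(A) RNA was sequenced from livers of 4 LWT and 4 LΔRbfox2 mice. Both groups were homozygous for the floxed allele (*Rbfox2* loxP/loxP), LWT mice had no Cre and LΔRbfox2 mice carried Albumin-Cre, a transgene that acts in hepatocytes, so that *Rbfox2* remains in other liver cells. The strain background of these mice is not stated in the sources used here. Mice of the study were male unless stated otherwise and 8 weeks old when they were placed on their diet; the livers used here came from mice on the control (chow) diet, for 12 weeks by the labels, fasted for 16 h. Each library is 1 liver.

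The libraries held between 37482458 and 56177588 counts. Reads were concentrated on fewer genes in LΔRbfox2 replicates 3 and 4, where the 20 most abundant genes took 49.6% and 44.7% of counts and the TMM factors were 0.724 and 0.776, against 31.2% to 43.7% and 1.02 to 1.14 in the other 6 livers. The principal axis of log2 CPM (counts scaled to an effective library size) held 54.1% of the variance and placed LWT replicates 1 and 4 and LΔRbfox2 replicate 2 at one end, and LΔRbfox2 replicates 3 and 4 and LWT replicate 2 at the other. Hepatocyte markers were abundant in all livers, with a summed level of 48265 to 65474 CPM in LWT and 50561 to 70937 CPM in LΔRbfox2 livers for the 7 of 8 that were found.

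*Rbfox2* itself was at 17.1, 10.4, 11.4 and 18.3 CPM in LWT replicates 1 to 4 and at 4.61, 6.09, 2.24 and 3.19 CPM in LΔRbfox2 replicates 1 to 4. Every LΔRbfox2 liver lay under every LWT liver, as for 1.23% of tested genes, with a mean of 28.2% of that in LWT. This is −1.82 on the log2 scale (standard error, SE, 0.32 by limma-voom; edgeR adjusted *P* = 0.504; two-sided exact permutation test, *P* = 0.0286, the lowest value that 70 splits of 8 livers can give). In LΔRbfox2 mice *Rbfox2* was deleted in hepatocytes by design. For the genes below, fewer cells of a type and less RNA per cell cannot be told apart in whole liver.

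The exons that the study names in these genes are shown first where they were matched, since they are what sets the isoforms apart. For *Pla2g6* the match is an assumption. A cassette exon was taken as one that some annotated protein-coding transcripts include and others skip, joining the same neighbouring splice sites. For each, the exon is in capitals and the 12 bases of its neighbouring exons are in lower case, so that the skipped isoform joins the lower-case runs directly. All are on the minus strand and are written 5′ to 3′ in the sense of the mRNA, from GENCODE M21 transcripts on GRCm38.
Scarb1 exon 12: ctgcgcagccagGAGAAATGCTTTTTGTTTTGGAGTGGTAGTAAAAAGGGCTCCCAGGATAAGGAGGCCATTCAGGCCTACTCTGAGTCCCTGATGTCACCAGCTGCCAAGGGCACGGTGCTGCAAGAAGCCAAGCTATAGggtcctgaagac
Pla2g6 exon 9 of Pla2g6-210: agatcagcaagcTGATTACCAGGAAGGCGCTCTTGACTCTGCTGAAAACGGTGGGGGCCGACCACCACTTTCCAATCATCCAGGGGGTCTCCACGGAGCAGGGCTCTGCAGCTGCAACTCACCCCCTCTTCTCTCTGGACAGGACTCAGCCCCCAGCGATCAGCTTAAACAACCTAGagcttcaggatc
Numb exon 3: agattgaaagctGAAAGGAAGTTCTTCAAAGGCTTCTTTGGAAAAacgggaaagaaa
Numb exon 9: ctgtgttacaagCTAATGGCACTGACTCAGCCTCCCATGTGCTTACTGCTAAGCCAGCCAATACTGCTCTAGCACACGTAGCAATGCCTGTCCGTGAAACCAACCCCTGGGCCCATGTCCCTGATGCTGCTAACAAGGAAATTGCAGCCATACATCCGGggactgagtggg
Osbpl9 exon 6: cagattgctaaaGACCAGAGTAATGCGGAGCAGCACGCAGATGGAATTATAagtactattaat

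*Scarb1* exon 12 (chr5:125281105-125281233) has 129 bases, of which 126 code and the last 3 are the stop codon of the SR-BI isoform, and the transcript that skips it ends in the other C terminus, SR-BII. The *Pla2g6* exon (chr15:79304305-79304469) has 165 bases, all coding. It is exon 9 in Pla2g6-210. Inserted into the skipping transcripts, it would be exon 10 in Pla2g6-203 and Pla2g6-206, which carry an additional exon near the start. In Pla2g6-201 and Pla2g6-202 it would be exon 9. No annotated coding transcript includes it as exon 10, so taking it as the exon 10 named in the study is an assumption. *Numb* exon 3 (chr12:83825259-83825291) has 33 bases and *Numb* exon 9 (chr12:83797197-83797343) 147, and both are coding in full. *Osbpl9* exon 6 (chr4:109091661-109091699) has 39 coding bases.

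Each of these 5 exons is a multiple of 3 bases long, as were 64.7% of the 6844 cassette exons in the tested genes. For *Sec31a*, the exon named in the study was not matched by its rank to an annotated cassette exon. Its 5 cassette exons have 39, 78, 93, 291 and 39 bases, and none is printed. GCATG, the RBFOX motif in DNA letters, was searched on the transcribed strand inside the 15 cassette exons of the 5 genes and was found in 1, the *Sec31a* exon of 291 bases, against 9.95% of cassette exons in all tested genes. The longer TGCATG, which contains it, was found in 0 of 15, against 2.995%. The introns beside the exons were not searched here.

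The genes themselves lie on the minus strand of 4 chromosomes of GRCm38: *Scarb1* (ENSMUSG00000037936) at chr5:125277087-125341094, *Pla2g6* (ENSMUSG00000042632) at chr15:79286228-79328390, *Numb* (ENSMUSG00000021224) at chr12:83794034-83921934, *Sec31a* (ENSMUSG00000035325) at chr5:100361649-100416234 and *Osbpl9* (ENSMUSG00000028559) at chr4:109061145-109202272. The printed exons make up between 0.557% (*Osbpl9*) and 3.75% (*Numb* exon 9) of the gene's merged exon length, and a gene count does not separate the isoforms. *Osbpl9* shares 633 exonic bases with *Nrd1* and *Numb* shares 166 with *Gm46367*, in both cases on the opposite strand. The strand setting of the counting is not given in the sources used here, so reads in those stretches are uncertain.

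None of the 5 genes passed the test of the genotypes after adjustment. At an edgeR adjusted *P* of at most 0.05 the count was 0 of 5, where 0% of all tested genes passed, and the adjusted values ran from 0.504 to 0.981. At an unadjusted *P* under 0.05, 1 gene, *Pla2g6*, was lower in LΔRbfox2 livers, against 1.83% of all tested genes, and 0 were higher, against 7.95%. For none of the 5 were the groups free of overlap, as they were for 1.05% of tested genes with LΔRbfox2 above and 1.23% with LΔRbfox2 below. The log2 fold change was negative for 4 genes and positive for *Osbpl9*, with a median of −0.24 beside −0.015 over all tested genes.

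**Figure D1:**
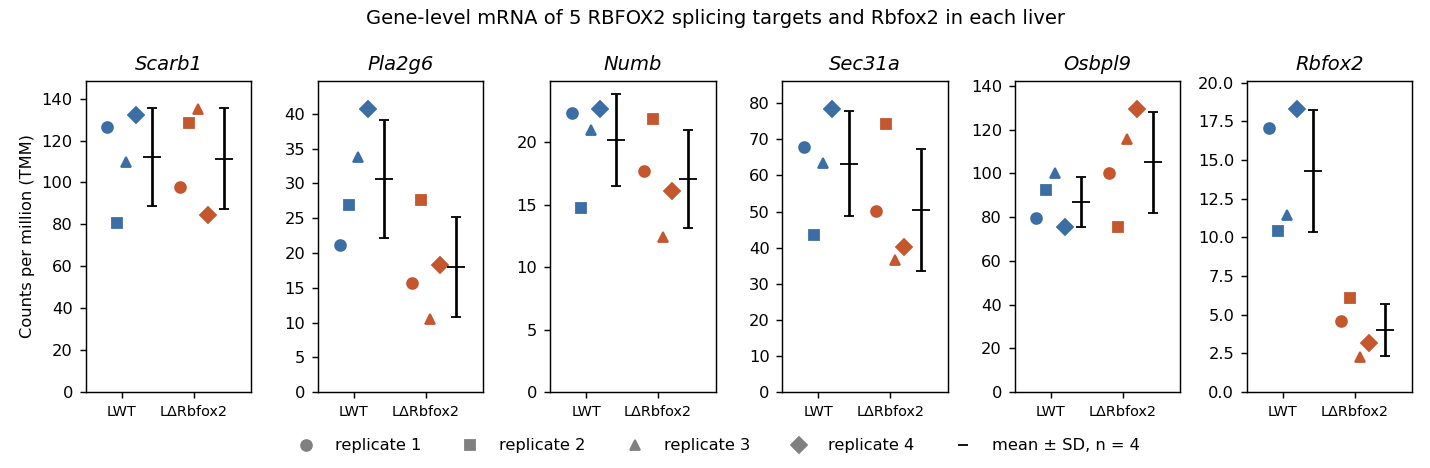
CPM after TMM normalization (y axis, from 0) in each liver of LWT (blue) and LΔRbfox2 (orange) mice, for the 5 targets and *Rbfox2*; marker shapes are replicate numbers, and the black bar beside each group is the mean with the SD (n = 4). The groups overlap for the 5 targets and do not overlap for *Rbfox2*, where the highest LΔRbfox2 liver is at 6.09 and the lowest LWT liver at 10.4.

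The mean of *Scarb1* mRNA in LΔRbfox2 livers was 99.2% of that in LWT livers. Its level was 126.6, 80.4, 109.8 and 132.4 CPM in LWT replicates 1 to 4 and 97.7, 128.4, 134.9 and 84.4 CPM in LΔRbfox2 replicates 1 to 4. Each group held livers at both the high and the low end, and the means were 112.3 ± 23.3 and 111.4 ± 24.2 CPM (SD, n = 4). The log2 fold change was −0.012 (SE 0.22; edgeR adjusted *P* = 0.981; exact permutation test, *P* = 0.971). The 95% interval from limma-voom ran from −0.51 to 0.48, which is a ratio of 0.702 to 1.39. The sign turned under other settings, with 0.20 after a gene length correction.

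*Pla2g6* had the lowest level in LΔRbfox2 relative to LWT livers among the 5 genes. Its mRNA was at 21.2, 26.9, 33.8 and 40.7 CPM in LWT replicates 1 to 4 and at 15.6, 27.6, 10.4 and 18.3 CPM in LΔRbfox2 replicates 1 to 4. In 3 of 4 LΔRbfox2 livers the phospholipase was below every LWT liver, and LΔRbfox2 replicate 2, at 27.6 CPM, exceeded LWT replicates 1 and 2. The means were 30.6 ± 8.42 and 18.0 ± 7.20 CPM (SD, n = 4), the latter 58.7% of the former. The log2 fold change was −0.77 (SE 0.30), with an unadjusted edgeR *P* of 0.0293 and an adjusted *P* of 0.504, and the exact permutation test gave *P* = 0.0857. The limma-voom interval ran from −1.48 to −0.12.

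The size of the *Pla2g6* difference depended on single livers. Without LΔRbfox2 replicate 2 it was −1.05 (edgeR adjusted *P* = 0.0841), and the least negative value with a liver left out, −0.60, came without LWT replicate 4. The unadjusted *P* stayed under 0.05 in 3 of these 8 refits and in 11 of 13 other settings, and the smallest difference over all of them was −0.50, with corrections for GC content and gene length. *Pla2g6* is also expressed outside hepatocytes. The 8 macrophage markers summed to between 67.5 and 119.7 CPM in LWT and between 38.4 and 79.9 CPM in LΔRbfox2 livers, and the groups overlapped. Of the 8, 6 had a negative and 2 a positive log2 fold change, against 51.6% negative among all tested genes. *Clec4f* (−0.73) and *Cd68* (−0.77) were lower at an unadjusted *P* under 0.05, as were 1.83% of all tested genes. *Adgre1* was at −0.098, and *Marco* (0.48) and *Timd4* (0.077) had the opposite sign. Of 8 sinusoidal endothelial markers, 6 were also negative and 2 positive, with 0 at an unadjusted *P* under 0.05. The part of either cell type in the *Pla2g6* value was not tested.

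*Numb* was slightly lower on average in LΔRbfox2 livers, by less than the spread within groups. Its level was 22.3, 14.8, 20.96 and 22.7 CPM in LWT replicates 1 to 4 and 17.7, 21.9, 12.4 and 16.1 CPM in LΔRbfox2 replicates 1 to 4. LWT replicate 2 lay among the lower livers and LΔRbfox2 replicate 2 among the higher ones, so the groups overlapped. The log2 fold change was −0.24 (SE 0.22, interval −0.73 to 0.24; edgeR adjusted *P* = 0.641; exact permutation test, *P* = 0.314). This endocytic adaptor remained at 84.5% of its LWT mean.

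*Sec31a*, the COPII coat subunit, followed the same order at its extremes. It was at 68.0, 43.4, 63.3 and 78.3 CPM in LWT replicates 1 to 4 and at 50.1, 74.2, 36.7 and 40.2 CPM in LΔRbfox2 replicates 1 to 4. For *Numb* and *Sec31a*, and also for *Pla2g6* and *Rbfox2*, the highest liver was LWT replicate 4 and the lowest LΔRbfox2 replicate 3. LΔRbfox2 replicates 3 and 4 are the libraries with the low TMM factors. Without replicate 3 the log2 fold change was −0.60 for *Pla2g6*, −0.15 for *Numb*, −0.23 for *Sec31a* and −1.64 for *Rbfox2*. Without replicate 4 these values were −0.77, −0.21, −0.23 and −1.72. The livers were not left out together, and the part of the low factors was not tested. The *Sec31a* log2 fold change was −0.33 (SE 0.26, interval −0.94 to 0.22; edgeR adjusted *P* = 0.608; exact permutation test, *P* = 0.286). It ran from −0.58 without LΔRbfox2 replicate 2 to −0.21 without LWT replicate 4 when each liver was left out in turn. With corrections for GC content and gene length it was −0.084.

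*Osbpl9* was the only one of the 5 with a higher mean in LΔRbfox2 livers. Its level was 79.4, 92.5, 100.2 and 75.5 CPM in LWT replicates 1 to 4 and 100.2, 75.3, 115.5 and 129.2 CPM in LΔRbfox2 replicates 1 to 4. Here 3 LΔRbfox2 livers lay above the highest LWT liver, LΔRbfox2 replicate 1 by less than 0.1 CPM, and LΔRbfox2 replicate 2 was the lowest of all 8. The log2 fold change of this lipid-transfer gene was 0.27 (SE 0.20, interval −0.19 to 0.70; edgeR adjusted *P* = 0.585; exact permutation test, *P* = 0.257). It ran from 0.16 without LΔRbfox2 replicate 4 to 0.40 without LΔRbfox2 replicate 2 when each liver was left out in turn.

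**Figure D2:**
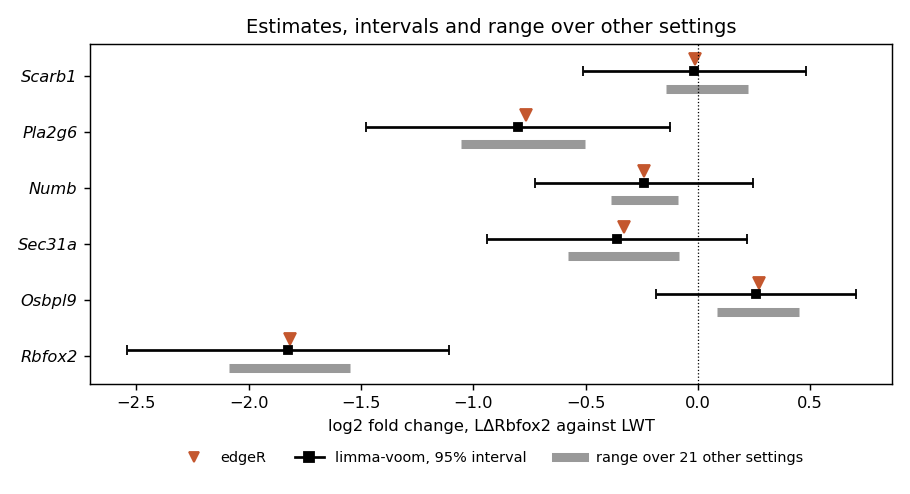
Log2 fold change of LΔRbfox2 against LWT (x axis) for the 5 targets and *Rbfox2*; triangles are edgeR estimates, squares with bars are limma-voom estimates with the 95% interval, and grey bars give the range of estimates over 21 other settings. The intervals of 4 targets include 0 and that of *Pla2g6* ends at −0.12.

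Without LΔRbfox2 replicate 2 the estimates of all 5 genes lay further from 0, with *Numb* at −0.39 and *Scarb1* at −0.087. It was high for *Pla2g6*, *Numb* and *Sec31a* and low for *Osbpl9*, and for the last 3 of these it sat nearer to LWT replicates 1 and 4 than to LΔRbfox2 replicates 3 and 4. These are also the livers that the principal axis sets together. With 1 surrogate variable in the edgeR model, the log2 fold changes were −0.088 for *Numb*, −0.12 for *Sec31a* and 0.085 for *Osbpl9*, whereas *Pla2g6* was at −0.67 (unadjusted *P* = 0.0305) and *Rbfox2* at −1.55. How the surrogate variable relates to the principal axis was not examined, and the part of that axis in the differences between genotypes was not tested.

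**Figure D3:**
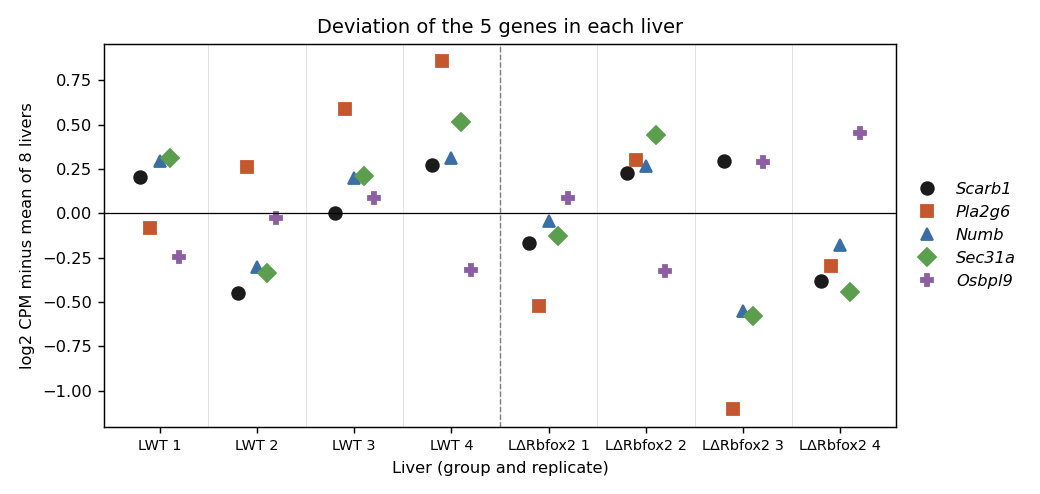
Log2 CPM of each gene minus its mean over the 8 livers (y axis), by liver (x axis; the dashed line separates LWT from LΔRbfox2). *Numb* and *Sec31a* lie on the same side of 0 in every liver, *Osbpl9* lies on the opposite side of 0 from them in 6 of 8 livers, and *Pla2g6* has the widest range.

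Livers of one group differed among themselves. The coefficient of variation was 20.8% in LWT and 21.7% in LΔRbfox2 livers for *Scarb1*, 27.5% and 40.0% for *Pla2g6*, 18.2% and 22.98% for *Numb*, 23.1% and 33.6% for *Sec31a*, and 13.2% and 22.001% for *Osbpl9*. It was higher in the LΔRbfox2 group for all 5, and this difference in spread was not tested. The smallest count of any of the 5 in a liver was 359, for *Pla2g6* in LΔRbfox2 replicate 3.

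Levels of different genes are compared only per length. Per kilobase of merged exons, the LWT means were 13.2 ± 2.74 CPM for *Scarb1*, 12.4 ± 1.64 for *Osbpl9*, 8.02 ± 1.86 for *Sec31a*, 5.64 ± 1.55 for *Pla2g6* and 5.15 ± 0.938 for *Numb* (SD, n = 4). *Scarb1* and *Osbpl9* did not differ beyond their spread, nor did *Pla2g6* and *Numb*, and *Rbfox2* was below all 5 at 1.76 ± 0.486. In LΔRbfox2 livers *Osbpl9* was first with 14.99 ± 3.30, followed by *Scarb1* with 13.1 ± 2.85, *Sec31a* with 6.38 ± 2.14, *Numb* with 4.35 ± 1.0004 and *Pla2g6* with 3.31 ± 1.33. With the length of the longest protein-coding transcript in place of merged exons, *Scarb1* was first in both groups (44.5 ± 9.24 and 44.2 ± 9.60 CPM per kilobase).

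In the 5 lists of pathway genes, 2 of 80 tested genes (2.5%) were lower at an unadjusted *P* under 0.05, against 1.83% of all tested genes, and 2 (2.5%) were higher, against 7.95%, so neither share is a result about these pathways. In these lists and that of the RBFOX family, 0 genes passed the adjusted threshold. Among 14 genes of HDL handling and sterol export, 1 was lower at an unadjusted *P* under 0.05 and 0 were higher, with a median log2 fold change of −0.15. The lower gene was *Abcg8*, which with ABCG5 forms the transporter that exports sterols into bile, at 51.7 ± 15.1 CPM in LWT and 35.7 ± 3.33 CPM in LΔRbfox2 livers (log2 fold change −0.53, unadjusted *P* = 0.0325). The groups overlapped, with LWT replicate 2 at 35.1 CPM, below LΔRbfox2 replicates 1 (40.3 CPM) and 2 (35.3 CPM). With each liver left out in turn, 0 to 2 genes of this list were lower at an unadjusted *P* under 0.05. *Scarb2*, a paralogue of *Scarb1* that encodes a lysosomal membrane protein, was at 124.6 ± 18.6 and 123.8 ± 7.64 CPM (log2 fold change −0.0090, SE 0.16).

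Of the 15 tested phospholipases A2, related hydrolases and lysophospholipid acyltransferases, 1 was higher and 1 lower at an unadjusted *P* under 0.05, and the median was −0.090. *Pnpla7*, a lysophospholipase, was at 57.8, 94.0, 63.3 and 75.8 CPM in LWT replicates 1 to 4 and at 112.2, 82.7, 106.5 and 131.9 CPM in LΔRbfox2 replicates 1 to 4, with only LΔRbfox2 replicate 2 inside the LWT range (log2 fold change 0.57, unadjusted *P* = 0.0198). *Pla2g7*, the plasma platelet-activating factor acetylhydrolase that macrophages make, was at 2.53 ± 0.926 and 1.46 ± 0.403 CPM (log2 fold change −0.80, unadjusted *P* = 0.0296). *Pnpla8*, the closest relative of *Pla2g6* among calcium-independent phospholipases, had a log2 fold change of 0.30 (SE 0.21), the opposite sign to *Pla2g6*.

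In the list of clathrin endocytosis and NUMB partners, 0 of 20 tested genes had an unadjusted *P* under 0.05, and 15 of 20 had a negative fold change, against 51.6% of all tested genes. The median was −0.16 and turned to 0.014 with the gene length correction. The *Numb* paralogue *Numbl* was barely detected, with 8 to 31 counts per liver (log2 fold change −0.012, SE 0.37). Among 20 COPII and ER exit genes, 1 was higher and 0 lower, with a median of −0.092 that turned to 0.021 with the gene length correction. The higher gene was *Pdcd6*, a calcium-binding partner of SEC31A, at 40.9, 71.1, 46.0 and 38.7 CPM in LWT replicates 1 to 4 and at 78.6, 48.6, 105.5 and 126.8 CPM in LΔRbfox2 replicates 1 to 4, again with LΔRbfox2 replicate 2 inside the LWT range (log2 fold change 0.87, unadjusted *P* = 0.0173). *Sec31b*, the paralogue of *Sec31a*, was at 2.69 ± 1.81 and 1.78 ± 0.486 CPM (log2 fold change −0.59, SE 0.51).

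In the oxysterol-binding protein family, 0 of 11 tested genes had an unadjusted *P* under 0.05, the log2 fold changes ran from −0.80 to 0.27 and the median was 0.0026, a sign that changed with the scaling (−0.0051 with DESeq2 size factors). *Osbpl11*, which was measured at 10.7 ± 1.11 and 8.66 ± 2.30 CPM, had a log2 fold change of −0.31 (SE 0.22), and *Osbpl10*, with 1 to 8 counts per liver, was not tested. In the list of the RBFOX family and other reported RBFOX2 targets, 3 of 4 tested genes were lower at an unadjusted *P* under 0.05, against 1.83% of all tested genes. Of these 3, 1 is the deleted gene itself.

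*Ptbp2*, which encodes a neuronal polypyrimidine tract-binding protein, was at 7.002, 5.81, 5.66 and 6.29 CPM in LWT replicates 1 to 4 and at 2.47, 2.67, 1.66 and 3.41 CPM in LΔRbfox2 replicates 1 to 4. The groups did not overlap, as for 1.23% of tested genes with LΔRbfox2 below, and the log2 fold change was −1.28 (SE 0.23, edgeR adjusted *P* = 0.504). *Rbfox3* had only 7 to 18 counts per liver and was also lower without overlap (log2 fold change −0.80), and *Rbfox1* was not detected (0 counts in all 8 livers, which allows up to between 0.0468 and 0.0929 CPM, the level of 3 counts).

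**Figure D4:**
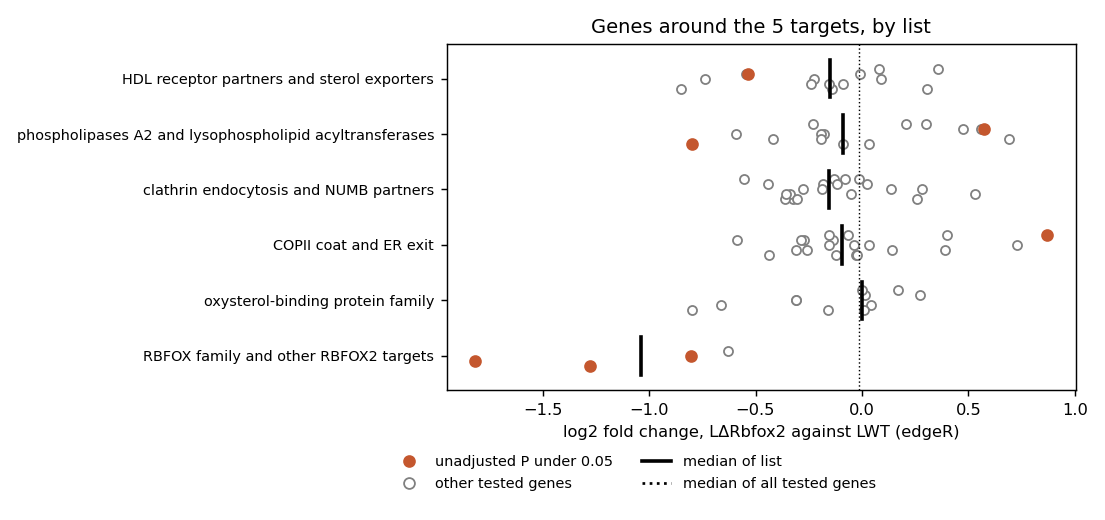
Log2 fold change (x axis, edgeR, LΔRbfox2 against LWT) of every tested gene of the 6 lists (rows); filled points had an unadjusted *P* under 0.05, black bars are list medians, and the dotted line is the median of all 13856 tested genes, −0.015. The first 5 lists hold 1 lower gene in each of 2 lists and 1 higher gene in each of 2, and the list with *Rbfox2* lies to the left of the dotted line in full.

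The genes most like each target over the 8 livers were taken by Pearson's *r* of log2 CPM, as a description. All points share the same 8 libraries. For *Sec31a* they were *Nacc1* (0.998), *Atp6v0a1* (0.995) and *Rubcn* (0.994), and 964 tested genes had *r* over 0.9. For *Numb* they were *Raver1*, *Phactr4* and *Cactin* (each 0.993), with 837 genes over 0.9. *Osbpl9* was most like *Snx13* (0.985), *Med7* (0.983) and *Gm4788* (0.983), with 1100 genes over 0.9.

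*Scarb1* and *Pla2g6* had fewer genes with *r* over 0.9 than the other targets. How many such genes a typical tested gene has was not computed. For *Scarb1*, 10 genes had *r* over 0.9, led by *Sh2d3c* (0.947), *Tmem28* (0.940) and *Bicdl1* (0.936). For *Pla2g6*, 39 genes did, led by *Gpatch3* (0.967), *Grhl1* (0.964) and *Cmtm4* (0.953). Of these leading genes, *Grhl1* had an unadjusted *P* under 0.05, with 0.884 ± 0.247 CPM in LWT and 0.469 ± 0.180 CPM in LΔRbfox2 livers (log2 fold change −0.90).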

How the data were processed

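The authors aligned 100-base paired-end reads of poly(A) RNA to GRCm38 with TopHat2 and counted them per gene with featureCounts. The submitters' processing notes give CASAVA 1.8.4 and TopHat2 2.0.11. The counts deposited by the authors are whole numbers without normalization. The version, strand and multi-mapping settings of the counting are not given in the sources used here. Groups, diet and replicate numbers came from the labels, and 0 columns were unmatched. Nothing says whether same-numbered mice were related. The 12 weeks on diet are from the labels, and the methods of the study state a longer time.

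Symbols, positions, lengths and exon sequences came from GENCODE M21 (GRCm38), which gave a symbol to 45143 of 46078 identifiers. The counts were tested in R 4.3.3 with edgeR 4.0.16: filterByExpr (minimum count 10, total 15), TMM factors, then the quasi-likelihood test with genotype alone and Benjamini–Hochberg adjustment over all 13856 genes. The median library held 42589090 counts. SEs and 95% intervals are from limma-voom (limma 3.58.1). Permutation tests ran on log2 CPM (prior count 2) and were two-sided and exact. Coordinates are 1-based. Libraries of a genotype differed by a chi-square of at least 106 per degree of freedom, so no library was a copy of another of its genotype. Pairs across genotypes were not compared in this way.

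The 5 genes, the 6 lists of related genes and the marker lists were chosen with earlier results of these data known. The named genes are the 5 targets and *Rbfox2*; in each list up to 4 genes with the smallest unadjusted *P* under 0.05; the paralogues *Scarb2*, *Numbl*, *Sec31b*, *Osbpl10*, *Osbpl11* and *Pnpla8*; and the 3 genes most correlated with each target. Single macrophage markers are named beside *Pla2g6*, *Abcg5* beside *Abcg8*, *Snrnp70* beside *Ptbp2*, and *Nrd1* and *Gm46367* for their overlap, all chosen after their values were seen. Alternatives were DESeq2 1.42.0 and upper-quartile factors, DESeq2 and limma-voom tests, other filters, robust estimation, a replicate block, GC content and length corrections (lowess, span 0.3), 1 surrogate variable (sva 3.50.0), each liver left out, and a second adjusted threshold of 0.1.

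Tests were tried on simulated counts for all 13856 genes, 200 of them changed. The edgeR test recovered 0 of them where the true log2 change was 0.5, 10 where it was 1 and 172 where it was 2. Of the calls by DESeq2, 5 of 5, 22 of 104 and 38 of 223 were false, in that order. For edgeR these were 0 of 0, 0 of 10 and 7 of 179. Each gene was drawn independently, so patterns that many genes share over the livers were not simulated. Tables and plots used Python 3.11.15, pandas 2.3.3 and matplotlib 3.10.9.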

Additional observations from a re-analysis of the deposited data

Results flagged for a closer look

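Among 64 groups of 4 livers examined for the named genes, 1 held a value set apart from the other 3, where chance gives about 1 in 20 groups (3.2 of 64). *Numbl* was at 0.484 CPM in LΔRbfox2 replicate 2, against 0.206 to 0.248 CPM in the other LΔRbfox2 livers, a gap of 0.849 of the whole range, past the 95% critical value of Dixon's test. At 8 to 31 counts per liver, *Numbl* is near the lower limit of what was tested. None of the 5 targets and *Rbfox2* had such a value.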

How the results depend on the processing

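Over 21 other settings for each of the 5 targets (105 values), 97 kept the direction and stayed short of the adjusted threshold, 0 passed it and 8 reversed, all 8 for *Scarb1*. Its log2 fold change was 0.20 with a gene length correction, 0.22 with GC content and length corrections, 0.20 with the replicate block and both corrections, 0.14 with 1 surrogate variable, and from −0.14 to 0.11 with each liver left out. *Rbfox2* passed only with DESeq2 (−1.82, adjusted *P* = 2.3e-04; up to 0.933 over its settings). The number of genes past the adjusted threshold was 0 in edgeR (1356 at an unadjusted *P* under 0.05), in limma-voom and in all other settings, except 10 with DESeq2. Same-numbered livers did not deviate together (correlations 0.13, −0.61, 0.12 and −0.51), so the numbers were not taken as pairs. With the replicate block, *Pla2g6* was at −0.81 (unadjusted *P* = 0.0369), and the genes at an unadjusted *P* under 0.05 were 229 higher and 106 lower in place of 1102 and 254. With a liver left out they ranged from 282 and 122 (without LΔRbfox2 replicate 4) to 2344 and 1131 (without LΔRbfox2 replicate 2). The order of the 5 levels per kilobase was the same in 1 of 8 livers with the longest coding transcript as length. All 42 alternative values of the list medians moved by less than 1 SD between livers of the list's median level, but 9 changed sign, in 3 lists. With the gene length correction, GC content and length corrections, and the replicate block with both, the medians were 0.014, 0.029 and 0.016 for clathrin endocytosis and NUMB partners and 0.021, 0.023 and 0.021 for COPII and ER exit. The oxysterol-binding protein family was at −0.0051 with DESeq2 size factors, −0.044 with upper-quartile factors and −0.014 with the GC content correction. Of 108 counts of list genes at an unadjusted *P* under 0.05, recomputed after seeing the data with each liver left out or 1 surrogate variable, 25 moved by over 1.5 times, all between 0 and 3 genes. The search of introns for RBFOX motifs, and its alternative with a shorter window, was not run. Counts of the 5 targets were at least 359 in each liver, and their intervals reflect the spread of 4 livers a group.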
